A study of Mus musculus with 3 samples.

Results

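The 8 genes described here encode RNA-binding proteins that set how long an mRNA lasts by binding AU-rich elements or stem-loops in its 3′ UTR. They were chosen by name, as the rows of the deposited gene table called Zfp36, Zfp36l1, Zfp36l2, Elavl1, Hnrnpd, Khsrp, Zc3h12a and Rc3h1, so that 8 of 43472 rows were taken by a rule that used names alone. The names themselves, and the gene lists used below, were chosen with earlier results of these data known. The study addressed how a soluble skin micrograft (MG) acts on wounded fibroblasts through the ERK pathway. Fibroblasts were grown from the tail tips of C57BL/6 mice, scratched as an in vitro wound, and given MG from mouse skin at 1 part in 10 of growth medium together with 1 µM PD0325901, an inhibitor of the kinase MEK, for 5 h. The labels name no genetic change. The 3 libraries analysed here, called replicates 1 to 3 and described as biological replicates, all belong to that 1 condition. An untreated, an MG-only or an inhibitor-only group is not analysed here, so every comparison below is between replicates or between genes, and none is between conditions. In bulk RNA, fewer cells of a type and less RNA per cell cannot be told apart.

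AU-rich elements are stretches of overlapping AUUUA letters in the 3′ UTRs of many cytokine, growth factor and immediate early mRNAs. The zinc finger proteins of the Zfp36 family bind them and recruit the machinery that removes the poly(A) tail, whereas Elavl1 (HuR) binds similar letters and mostly protects the mRNA. Hnrnpd (AUF1) and Khsrp (KSRP) are further AU-rich element binders, and Zc3h12a (Regnase-1, an endonuclease) and Rc3h1 (Roquin-1) act on stem-loops with a pyrimidine-purine-pyrimidine loop in mRNAs of inflammation. Several of these regulators carry such elements in their own mRNAs, and fibroblasts of a wound make many of the target mRNAs.

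The regulators' own 3′ UTRs were read from GENCODE M21 transcripts on GRCm38, using for each gene the transcript with the longest 3′ UTR. The AU-rich nonamer TTATTTATT was found in 5 of the 8 UTRs, against 7.73% of 19916 genes with a 3′ UTR and 8.39% of the 11140 detected ones. The UTRs of the regulators were also long, with a median of 1829 bases against 1207 for detected genes. The nonamer overlaps itself and contains the heptamer TATTTAT and the pentamer ATTTA, and only the transcript strand was searched. A match of letters is a description and not a bound site. One window of 29 bases is printed for each UTR of the Zfp36 family, for both stretches of Elavl1 and for Rc3h1, with the nonamer in capitals, because proteins of the Zfp36 family are known to bind these letters.
Zfp36, chr7:28376951-28376979, minus strand: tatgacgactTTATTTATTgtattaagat
Zfp36l1, chr12:80108167-80108195, minus strand: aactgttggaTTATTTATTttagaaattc
Zfp36l2, chr17:84184914-84184942, minus strand: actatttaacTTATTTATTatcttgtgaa
Elavl1, upstream stretch, chr8:4285788-4285816, minus strand: gtcatgaaaaTTATTTATTtatttattta
Elavl1, downstream stretch, chr8:4285750-4285778, minus strand: atttgtttgtTTATTTATTtatttattac
Rc3h1, chr1:160970043-160970071, plus strand: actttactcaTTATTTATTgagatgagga

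Each of the 3 Zfp36 family mRNAs held 1 nonamer and 3 heptamers. Elavl1 held 8 nonamers, most of them overlapping, in a UTR of 4218 bases, all between its bases 3794 and 3848, and only 7 of the 11140 detected genes (0.0628%) held 8 or more. Hnrnpd, with the longer UTR of 5429 bases, held 10 pentamers and no nonamer, and Khsrp held 1 pentamer in 1642 bases.

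Stem-loops were searched as 6 Watson-Crick pairs closing a loop of 3 bases with the order pyrimidine, purine, pyrimidine. They occurred in the UTRs of 2 of the 8 regulators, Zc3h12a and Rc3h1, which are the stem-loop factors of the group, against 10.2% of detected genes. Zc3h12a held 3 in a UTR of 856 bases and Rc3h1 held 4 in 7181 bases, of which 2 overlap in a run of alternating T and A. Of detected genes, 19 (0.171%) held 3 or more. The windows below show the stem and loop in capitals, for the 3 loops of Zc3h12a and 1 of Rc3h1. The target mRNAs Tnf, Nfkbid and Nfkbiz are shown as comparison. The search asked for this loop size and letter order, so every window shares them. For Rc3h1, loop 3 of 4 is printed, chosen without a stated rule.
Zc3h12a, first loop, chr4:125119062-125119090, minus strand: ccctgttGATACACATTGTATCtctgtca
Zc3h12a, middle loop, chr4:125118880-125118908, minus strand: gctagttAGGCACCATGTGCCTgctctct
Zc3h12a, last loop, chr4:125118656-125118684, minus strand: ggcgagaTTTAAATATTTTAAAtgaaaaa
Rc3h1, chr1:160971653-160971681, plus strand: agccaatAACTTCTGTGAAGTTgcctttt
Tnf, chr17:35199578-35199606, minus strand: cagacatGTTTTCTGTGAAAACggagctg
Nfkbid, chr7:30428395-30428423, plus strand: tctaggtGATTTCTGTGAAATCgagccca
Nfkbiz, chr16:55812607-55812635, minus strand: tgtaagtTGTTTCTATGAAACAaacccat

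**Figure D1:**
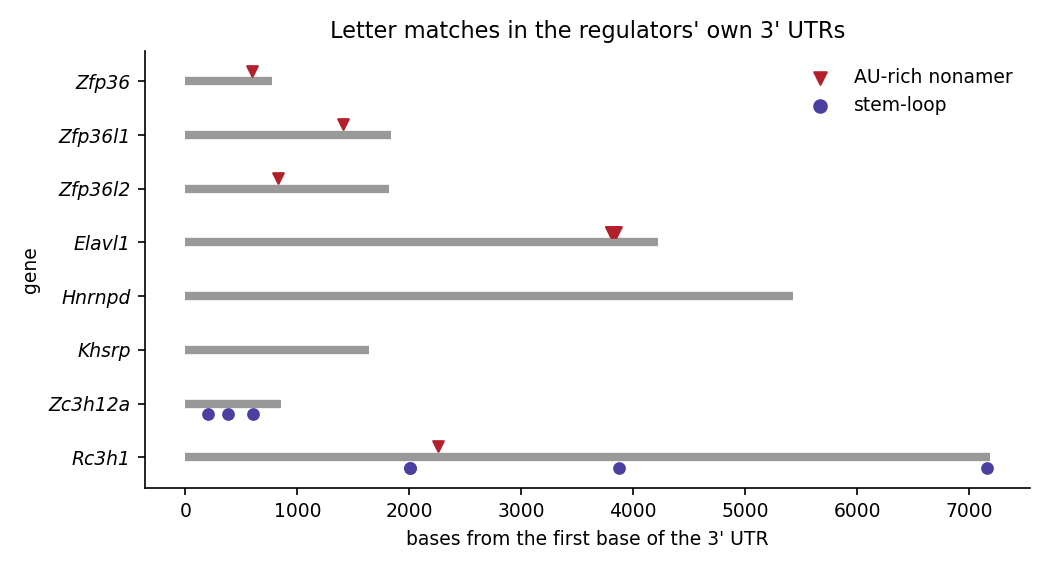
Grey bars show the 3′ UTR of each regulator in bases from its first base, with AU-rich nonamers as triangles and stem-loops as circles. The 8 nonamers of Elavl1 lie so close that they merge, and the stem-loops are on Zc3h12a (3) and Rc3h1 (4, the first 2 overlapping).

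All 8 regulators were detected, defined as at least 10 normalized counts in each library, as were 12204 genes in all. A normalized count is a read count divided by the library's size factor. The libraries held 17244505 to 27037783 reads on genes, and each regulator had 592 to 2834 reads per library. Of the fibroblast markers 8 of 8 were detected, with Col1a1 at 157553, 154124 and 246175 normalized counts, although Thy1 (2031, 15760 and 1652) and Lum (5073, 289 and 1164) differed widely between replicates. The 8 leukocyte markers, of which 3 were detected, summed to 222, 289 and 858 normalized counts in replicates 1 to 3, and Ptprc stayed at or below 1.74. The keratinocyte keratins Krt5, Krt14, Krt15 and Krt1 were at or near 0, as were the endothelial genes Pecam1, Cdh5 and Kdr, but other genes of these lists were present. Krt10 had 80.8, 39.5 and 32.0 normalized counts, Sfn had 1507, 287 and 1482, Egfl7 had 69.5, 53.6 and 49.8, and Tek reached 185 in replicate 2.

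Zfp36 (tristetraprolin), the founding member of the family, had normalized counts of 1147 in replicate 1, 1078 in replicate 2 and 901 in replicate 3 (1042 ± 127, SD, n = 3). The values fell close together, with replicate 1 at 1.27-fold of replicate 3. Its position is chr7:28376784-28380253, minus strand.

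Zfp36l1, which acts on the same letters, had 949, 1113 and 702 normalized counts (921 ± 207, SD, n = 3). Replicate 2 was the highest and replicate 3 the lowest, 1.59-fold apart. The gene (chr12:80107754-80113013, minus strand) shares 1672 of its 2990 exon bases with Gm26669 on the opposite strand. Gm26669 itself was given 4, 3 and 2 reads. Whether the counting used strand is not given in the sources used here, so the value of Zfp36l1 is uncertain.

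Zfp36l2 had 2086, 1256 and 1271 normalized counts (1537 ± 475, SD, n = 3). Replicate 1 stood 1.64-fold above the next library, and replicates 2 and 3 were alike. It is found at chr17:84183931-84187947 on the minus strand. Summed per kb of exon, the family was 5.58 ± 0.744 times the level of Elavl1 (SD, n = 3), and Zfp36l2 made up 41.4% ± 6.75 of that sum, against 29.0% ± 2.02 for Zfp36 and 29.6% ± 5.44 for Zfp36l1. Zfp36l2 had the largest share in replicates 1 and 3, at 47.7% and 42.1%, and Zfp36l1 in replicate 2, at 35.8%. These values depended on the length used. With the longest transcript the family was 3.31 ± 0.426 times Elavl1, and with exon bases shared with other genes left out it was 7.64 ± 0.914 times, with Zfp36l1 then at 47.8% ± 6.36 of the sum and Zfp36l2 at 30.7% ± 6.31.

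Elavl1, the stabilizing protein of the group, was the steadiest. It had 2006, 1997 and 1789 normalized counts (1930 ± 123, SD, n = 3), so that its libraries lay within 1.12-fold. The SD of its log2 values, 0.09, was at percentile 7.86 of detected genes. The gene lies at chr8:4285382-4325413 on the minus strand and shares 204 exon bases with Ccl25 on the opposite strand.

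Hnrnpd, whose protein isoforms are made by alternative splicing, had 1036, 1144 and 844 normalized counts (1008 ± 152, SD, n = 3), again with replicate 3 the lowest. Its highest library was 1.36-fold above its lowest. Hnrnpd lies at chr5:99955935-99978938 on the minus strand, and 5.06% of its 50-base windows also occur in transcripts of other genes. Khsrp, a KH domain protein of decay and splicing, had 1176, 1673 and 1184 normalized counts (1344 ± 285, SD, n = 3). Here replicate 2 stood 1.41-fold above the next library. Khsrp lies at chr17:57021051-57031522 on the minus strand.

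Zc3h12a had 1527, 1533 and 3002 normalized counts (2021 ± 850, SD, n = 3). Replicates 1 and 2 were nearly equal and replicate 3 was 1.96-fold above replicate 2. Its SD of log2 values, 0.56, was the largest of the group and at percentile 81.0 of detected genes, and without replicate 3 its mean was 1530. Replicate 3 also had the highest sum of leukocyte markers, with Lyz2 at 123, 62.7 and 601, Laptm5 at 1.74, 4.93 and 36.7 and Tyrobp at 0, 2.11 and 15.4 normalized counts. Cd52, also highest there, had 0.868, 0.705 and 9.48 normalized counts. Other markers of that list were not highest there, with Csf1r at 57.3, 179 and 161, Cd68 at 22.6, 33.1 and 27.3, Cd74 at 14.8, 5.64 and 5.93 and Ptprc at 1.74, 0.705 and 1.19. The part of these markers in the level of Zc3h12a was not tested. Zc3h12a lies at chr4:125118423-125127840 on the minus strand.

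Rc3h1, whose protein shares stem-loop targets with Zc3h12a, had 1001, 1166 and 759 normalized counts (975 ± 205, SD, n = 3). It was lowest in replicate 3, the library in which Zc3h12a was highest. Per kb of exon, Zc3h12a was 5.99, 5.16 and 15.5 times the level of Rc3h1 in replicates 1, 2 and 3. The gene lies at chr1:160906418-160974978 on the plus strand.

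**Figure D2:**
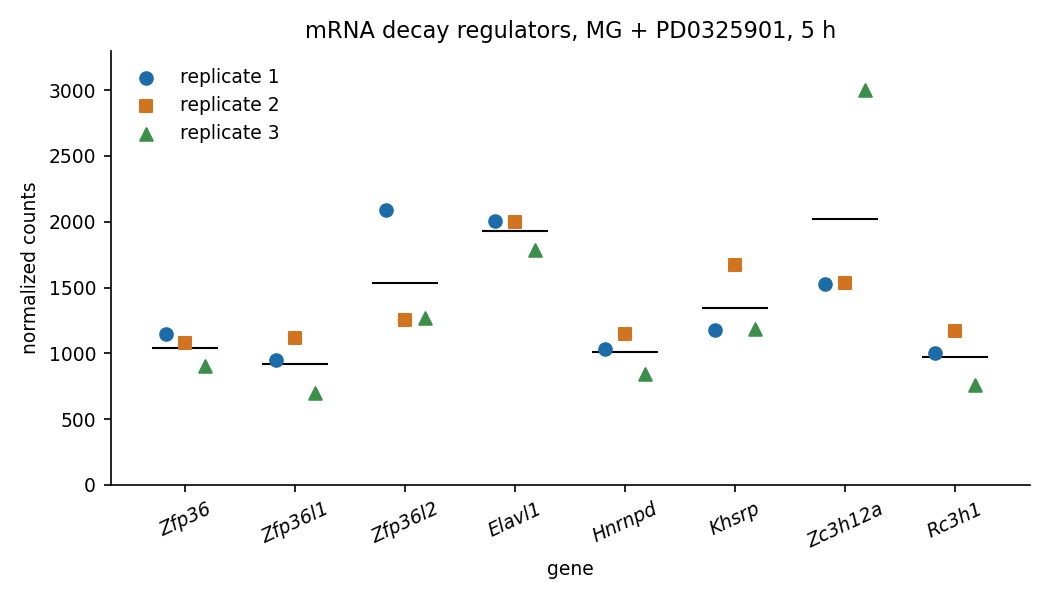
Normalized counts of each regulator (vertical axis, linear from 0) in replicates 1 to 3, with a line at the mean. Replicate 3 is the lowest of the 3 for 5 genes, whereas Zc3h12a reaches 3002 there against 1527 and 1533.

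Compared per kb of exon, Zc3h12a had the highest mean level at 701 ± 295 normalized counts per kb (SD, n = 3), followed by Zfp36l2 at 436 ± 135. Khsrp (311 ± 65.9), Zfp36l1 (308 ± 69.2) and Zfp36 (300.3 ± 36.6) came next at nearly the same level. Elavl1 (186 ± 11.9), Hnrnpd (137 ± 20.7) and Rc3h1 (86.2 ± 18.1) were the lowest. Neighbours were held separate where the order was the same in all 3 libraries and the mean log2 difference was above its SD. Neighbours among the upper 5 genes were not separated, and Zc3h12a was above Zfp36l2 in 2 of 3 libraries. Left with 2 libraries, 5 neighbours in place of 3 were separated without replicate 1 and 5 without replicate 2, among them Zc3h12a above Zfp36l2 (2.08-fold) without replicate 1 and Zfp36l2 above Zfp36 (1.57-fold) without replicate 2. Zfp36 was above Elavl1 (1.61-fold), Elavl1 above Hnrnpd (1.37-fold) and Hnrnpd above Rc3h1 (1.60-fold) in each library. The order depended on the length used. With exon bases shared with other genes left out, Zfp36l1 moved to rank 2 at 699 normalized counts per kb, and with the longest transcript as length Elavl1 moved to rank 5 at 336.

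**Figure D3:**
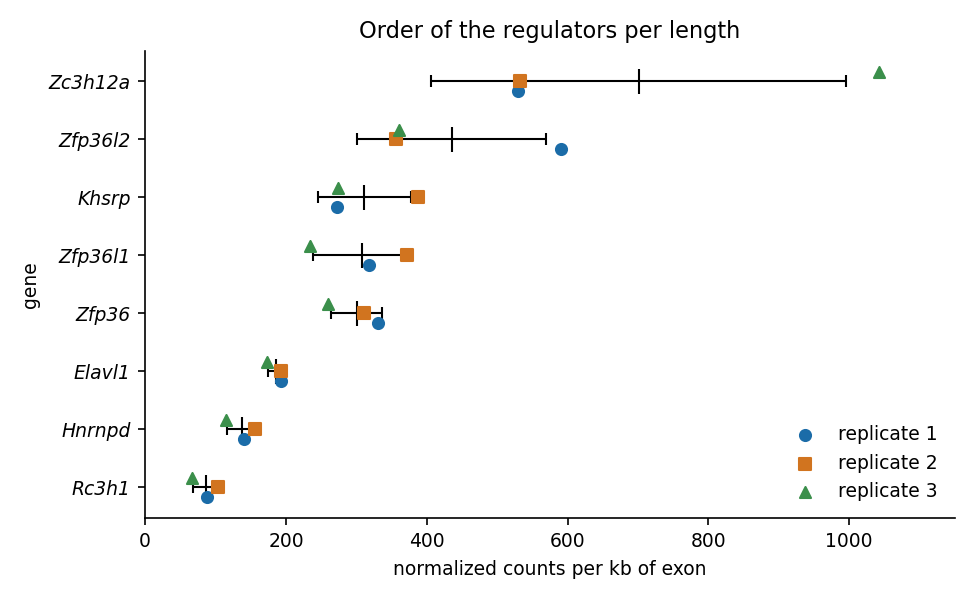
Level of each regulator in normalized counts per kb of merged exons (horizontal axis, linear from 0), as points for replicates 1 to 3 and as mean ± SD (n = 3). The bars of the upper 5 genes overlap their neighbours, and the points of Elavl1, Hnrnpd and Rc3h1 lie below those of Zfp36 in each replicate.

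The median SD of log2(normalized counts + 1) was 0.30 over the 8 regulators and 0.30 over all detected genes. Without replicate 3 it was 0.13 over the regulators and 0.30 over all genes. Without replicate 1 the 2 medians were 0.33 and 0.26, and without replicate 2 they were 0.26 and 0.20. The likeness of the medians therefore held only with all 3 libraries, and its direction changed with the library left out. No regulator had a library that differed from both others by more than 2-fold in the same direction, against 16.5% of the 13154 genes with a mean of at least 10. Among the 9992 genes with a mean of at least 100 the share was 8.70%. None had a highest library over 2-fold above the lowest, against 22.0% of detected genes. Zc3h12a, with its highest library 1.97-fold above the lowest, was the regulator nearest to that limit, and Zfp36l2, at 1.66-fold, was the next. With 8 genes these counts of 0 are no result about the group.

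The reads allow a finer comparison of library against library. A two-sided exact binomial test on the reads, adjusted over all genes by the Benjamini-Hochberg method, called 5 of 8 regulators different between replicates 1 and 2, where 69.3% of all genes tested were called. Between replicates 1 and 3 it called 7 of 8 against 52.8%, and between replicates 2 and 3 also 7 of 8 against 63.2%. The shares cover genes with as few as 10 reads in the pair, against 592 to 2834 reads per library for the regulators. They are not matched for level, and 8 genes give no result about the group. Zfp36, Elavl1 and Zc3h12a were not called between replicates 1 and 2, nor Khsrp between 1 and 3, nor Zfp36l2 between 2 and 3. The smallest adjusted p by this exact test was that of Zc3h12a between replicates 2 and 3, 8.05e-93 at 1.96-fold. None of these calls of regulators exceeded 2-fold. Of all genes tested, 3041 of 14771, 1389 of 14316 and 2447 of 14344 were called and exceeded it, in the same order of pairs. These tests compare libraries and cover counting error only, since reads were not counted by molecule. Counting error was at most 4.11% of a value, for Zfp36l1 in replicate 3, and is smaller than the spread between replicates for each regulator.

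Over the 3 libraries, the genes with a pattern closest to Zc3h12a, the regulator with the largest SD, were Lcn2 (255, 256 and 519 normalized counts), Itgb5 (5401, 5239 and 10795) and Coro7 (166, 156 and 312). The measure was the distance between log2 values centred on each gene's mean, 0.039, 0.053 and 0.069, and 5 of 9991 genes lay within 0.1. Lcn2 is itself on the list of stem-loop targets, but the search found no stem-loop in its UTR of 232 bases. With 3 libraries, such likeness rests on 1 high value in replicate 3.

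Of 21 paralogs and other binders of the same elements, 16 were detected, with a median SD of 0.30, and 1 of 16 had a library apart, against the 16.5% of all genes. The hnRNP proteins nearest to Hnrnpd were the highest per kb, with Hnrnpab at 2794 ± 267 and Hnrnpdl at 483 ± 69.5 normalized counts per kb (SD, n = 3), against 137 for Hnrnpd. Celf1, a binder of GU-rich elements, was at 365 ± 49.8. The neuronal paralogs of Elavl1 were at or near 0, at most 4.23 normalized counts for Elavl2. Zfp36l3 had 0 reads in each library, which allows up to 2.61, 2.11 and 3.56 normalized counts in replicates 1 to 3 (3 reads, counting error only). Rc3h2, the paralog of Rc3h1, had 1826, 1604 and 1134 normalized counts. Nynrin, a relative of the Zc3h12a nuclease, was the gene with a library apart, at 320, 1187 and 447, and Khnyn (188, 372 and 319) and Tia1 (540, 795 and 411) had the next largest SDs.

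The enzymes that carry out decay were present throughout. All 19 deadenylation genes were detected with a median SD of 0.23 and none had a library apart, against 16.5% of all genes. Tnks1bp1, a partner of the CCR4-NOT complex, was the highest at 1113 ± 260 normalized counts per kb (SD, n = 3), then Btg2 at 891 ± 196 and the deadenylase Cnot8 at 569 ± 20.9. Cnot1, the scaffold to which Zfp36 proteins bind, had 1013, 1993 and 1249 normalized counts, and Btg1, an antiproliferative adaptor of the complex, had 2119, 974 and 1350.

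All 16 genes of decapping and 5′-to-3′ decay were detected (median SD 0.32). Lsm4 (861 ± 239), the helicase Ddx6 (483 ± 101) and Upf1 (334 ± 32.4), which also acts with Zc3h12a, were the highest in normalized counts per kb (SD, n = 3). Lsm7, a ring subunit that binds the shortened tail, had 1 library apart at 248, 106 and 314 normalized counts, and Lsm5 had 391, 235 and 159. Of 15 exosome and Ski genes 14 were found and detected (median SD 0.27), and Exosc6 is not analysed here. Exosc10 (274 ± 62.9), Skiv2l (272 ± 46.2) and Exosc4 (264 ± 45.6) were the highest per kb, Ttc37, a Ski subunit, was apart at 292, 726 and 584 normalized counts, and the nuclease Dis3 had 379, 783 and 424.

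All 20 kinases and adaptors that act on the regulators were detected, with a median SD of 0.20. The 14-3-3 genes Ywhae (4376 ± 522), Ywhag (3273 ± 437) and Ywhaz (2567 ± 373), whose proteins hold phosphorylated Zfp36, were the highest in normalized counts per kb (SD, n = 3). Mapk14 (p38α), upstream of the kinase that phosphorylates Zfp36, had 1161, 2034 and 1503 normalized counts, Mapkapk3 had 410, 738 and 366, and Atm was apart at 34.7, 161 and 111.

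Of 27 AU-rich element targets, 20 were detected with a median SD of 0.59 against 0.30 for the regulators. This gap between targets and regulators rested on replicate 2, since without it the medians were 0.24 and 0.26. Both then stayed above the median of all detected genes, which was 0.20 without replicate 2. Of the targets, 10 of the 22 with a mean of at least 10 had a library apart, against 16.5% of all genes. In each of those 10 genes it was replicate 2 that lay more than 2-fold below both others, a pattern of 5.09% of all genes tested. The target list was chosen with earlier results of these data known, so this difference is a description only. The 10 were Tnf, Csf2, Cxcl2, Ccl2, Lif, Plau, Plaur, Ier3, Nos2 and Socs3. Replicate 2 was the lowest in 14 of the 20 detected targets, against 37.3% of detected genes.

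Cxcl2, a neutrophil chemokine with 4 nonamers, had the largest SD among the detected targets, with 20651, 1889 and 10878 normalized counts. Tnf, the classic target of Zfp36, had 52.1, 3.52 and 35.6, and Csf2 had 61.7, 1.41 and 110. In both, replicate 2 rested on 5 reads or fewer. Ccl2 (37108, 11740 and 35007), Ier3 (22607, 6647 and 21423) and Plau (28792, 10675 and 44245) were the highest per kb, and Socs3 (625, 225 and 1073) and Lif (2931, 1069 and 4685) followed Cxcl2 in SD among detected targets. In other targets replicate 2 was less far below the others, or was not the lowest. Ptgs2, with 1 nonamer, had 55003, 44099 and 54200, and Myc had 1309, 1257 and 1286, each with replicate 2 the lowest. Il6, a target of both kinds of regulator, was lowest in replicate 1 at 788, 1430 and 1491. Il3 and Il10 had 0 reads in each library.

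Among the regulators, only Zfp36l2 (1 of 8) had its lowest value in replicate 2, against 37.3% of detected genes, and 5 of 8 had it in replicate 3, against 28.3%. With 8 genes these counts are no result about the group. The 3 Zfp36 family genes had 1147, 949 and 2086 normalized counts in replicate 1 and 1078, 1113 and 1256 in replicate 2. In replicate 3 they had 901, 702 and 1271. Their sum per kb was highest in replicate 1 at 1239, against 1038 in replicate 2 and 854 in replicate 3. Thy1 was highest and Lum lowest in replicate 2, and the part of that difference between cultures in the target levels was not tested.

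**Figure D4:**
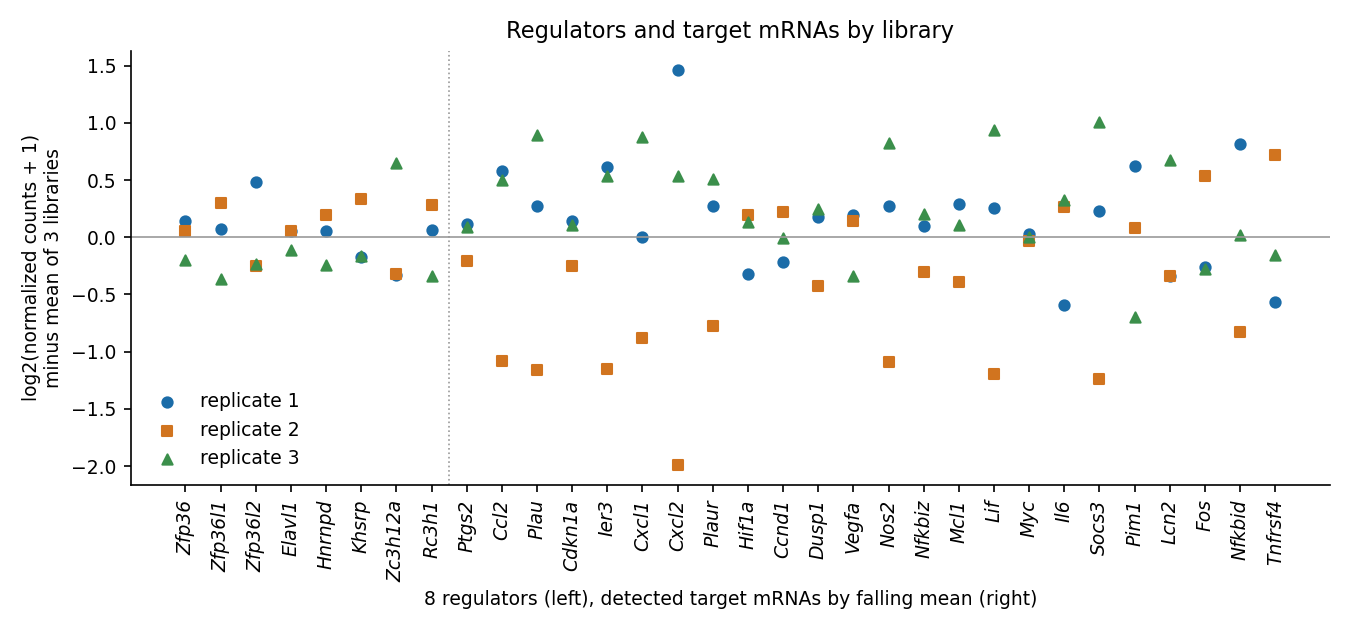
For each regulator (left of the dotted line) and each detected target mRNA (right, by falling mean), log2(normalized counts + 1) in replicates 1 to 3 minus the mean of the 3. Replicate 2 lies lowest for many targets, down to Cxcl2 at 1889 normalized counts, and for 1 of the 8 regulators.

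Of 15 stem-loop targets, 9 were detected, also with a median SD of 0.59. A library was apart in 4 of the 11 with a mean of at least 10, in no common direction, against 16.5% of all genes. Rel was high in replicate 2 (8.68, 27.5 and 11.9 normalized counts), Lcn2 was high in replicate 3, and Tnf and Cxcl2 were low in replicate 2. Nfkbiz, which encodes an inducible nuclear IκB protein, had 3923, 2971 and 4201 normalized counts, Nfkbid had 46.0, 14.1 and 26.1, and Cxcl1 had 12229, 6635 and 22360. Il12b and Ctla4 had 0 reads in each library. The list includes Zc3h12a itself and shares genes with the AU-rich list, so their medians are not independent.

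**Figure D5:**
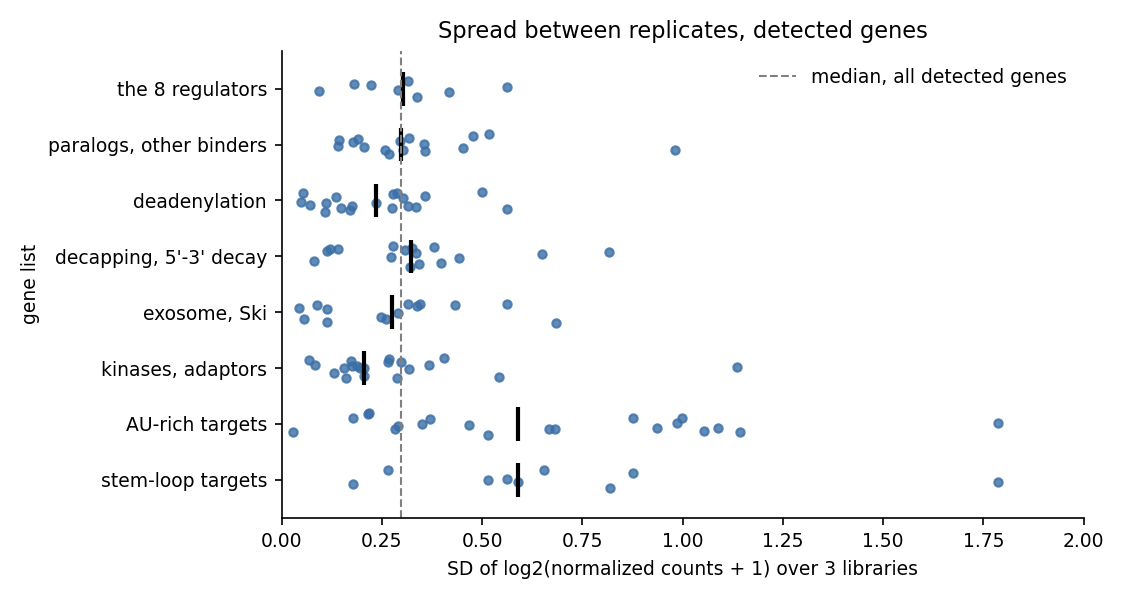
SD of log2(normalized counts + 1) over the 3 libraries for each detected gene (points) by list, with a bar at the list's median and a dashed line at the median of all detected genes, 0.30. The regulators lie around that line, and the medians of both target lists are at 0.59.

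Letters in the UTR went with little of this spread over all genes. Detected genes with a nonamer had a median SD of 0.32 (935 genes, median UTR 2425 bases) against 0.29 without one (10205 genes, 1127 bases), and those with and without a stem-loop were both at 0.29. The nonamer was found in 12 of the 27 AU-rich targets and the heptamer in 22 of 27, against 31.2% of detected genes for the heptamer. A stem-loop was found in 8 of the 15 stem-loop targets, 1 of them Zc3h12a itself, against 10.2% of detected genes. The search found none in Il6, Il12b, Il2, Ptgs2, Lcn2, Cxcl1 and Cxcl2.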

How the data were processed

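RNA was sequenced from 3 libraries of 1 condition with a stranded mRNA kit as 50 bp single reads. The authors checked reads with FastQC 0.11.5, aligned them to mm10 with TopHat2 2.0.13, allowed 2 mismatches, kept uniquely mapped reads scoring 10 or more, and used SAMtools 0.1.19.24. They counted reads per gene with HTSeq 0.5.3p3 and divided them by DESeq size factors. The deposited signal is therefore a normalized count. The annotation and strand setting of the counting are not given in the sources used here. A further 3 columns of per-sample values match none of the labelled samples and were not used.

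Each value was a whole multiple of 1 read, within 0.1 read for 100% of values, so reads per gene were recovered (22540518, 27037783 and 17244505 in replicates 1 to 3). The planned binomial test used these reads, with library totals as the expected share and at least 10 reads in the pair. Levels are means ± SD of normalized counts, without a test, since there is 1 condition. The pseudocount was 1. P-values measure only differences between libraries. Gene names that a spreadsheet had turned into dates (27 rows, 0.231% of reads) could not name a gene. Lengths, positions and UTRs came from GENCODE M21 (GRCm38). Named genes were the 8 regulators, from each list the 3 highest per kb, the 3 with the largest SD and those with no reads, the 3 genes most like the regulator of largest SD, and the genes with a library apart. Other genes named, such as Cnot1, Rc3h2, Elavl2, Myc, Il6 and Nfkbiz, were chosen after their values were seen. The regulators and the lists were chosen with earlier results of these data known. Alternatives were equal totals, TMM (edgeR 4.0.16, R 4.3.3), other limits and lengths, and leaving out each replicate. Scripts used Python 3.11.15, numpy 2.4.6, scipy 1.17.1 and pandas 2.3.3 and were tested on simulated data.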

Additional observations from a re-analysis of the deposited data

How the results depend on the processing

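Of 103 values recomputed under another choice 92 stayed within the spread or within 1.5 times, including all 40 means of single regulators. Leaving out 1 of 3 libraries cannot shift a mean by as much as the SD of the 3. For the means recomputed that way the outcome was therefore fixed in advance. So were the counts of regulators with a library apart under other minimum levels or without a replicate, and their median SD with no minimum level. Equal totals and TMM values were rescaled to the mean of the authors' size factors, which limits how far such means can shift. The 92 therefore include values that could not change. The number of neighbours separated per kb was 3 and ranged from 3 to 5 when each replicate was left out, with 5 without replicate 1 and 5 without replicate 2. The median SD of the regulators, 0.30, ranged from 0.13 without replicate 3 to 0.33 without replicate 1. That of all detected genes was 0.26 without replicate 1, 0.20 without replicate 2 and 0.30 without replicate 3. The median SD of the detected AU-rich targets, 0.59, ranged from 0.24 without replicate 2 to 0.59 without replicate 3, and that of the stem-loop targets from 0.61 to 0.62. Without replicate 2 the medians of the decay machinery and paralog lists were 0.12 for paralogs, 0.11 for deadenylation, 0.21 for decapping and 0.14 for the exosome. At a 1.5-fold limit 2 regulators had a library apart, Zc3h12a and Zfp36l2, against 36.3% of all genes. When a difference of more than 2-fold was also asked, 0 regulators were called in each pair of replicates (0 of 5, 0 of 7 and 0 of 7 calls). Of all genes tested, 3041 of 14771, 1389 of 14316 and 2447 of 14344 were called then. The counts of 0 follow from the regulators' ranges, none of which was over 2-fold. With no minimum level the median SD of all genes was 0.46. For these changes the cause was not tested, beyond the fewer libraries and the other limits themselves. Leaving out shared exon bases, an equal number of reads per library, the authors' size factors in place of library totals, leaving out replicates for libraries apart and for the lists, and other lengths for the Zfp36 family were added after seeing the data. Equal totals and equal reads each gave the regulators a median SD of 0.35. No paired analysis was possible because the libraries belong to 1 condition. The depth keeps counting error at or under 4.11% for the regulators but not for targets with few reads, such as Tnf and Csf2 in replicate 2, and 3 libraries limit every statement on spread. Whether a library stood out in a group of 3 was not assessed by an outlier test.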
